A study of Mus musculus with 50 samples.

Results

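Bok and 9 related genes of the BCL2 family (Bcl2, Bcl2l1, Bcl2l2, Bcl2l11, Bax, Bak1, Bad, Bid and Mcl1) were followed on Agilent two-color arrays that compared hippocampal RNA of transgenic (TG) and wild-type (WT) mice. The members were found by symbol, from the RefSeq accession of a probe or from the symbol in its description. All 10 members matched, with 15 probes, out of 16787 named genes on the array. Bok was chosen by its measured difference between TG and WT mice on these same arrays, so its difference between the genotypes is given as a description without a test. The other 9 genes were chosen as its relatives, and they were tested together with all probes of the array.

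The WT mice were male C57/BL6j. The TG mice were male, had the same background and overexpressed δC-DCLK-short, a short product of the gene Dclk1 with a constitutively active kinase. Neither an age nor the promoter of the transgene is given in the sources used here. Both hippocampi of a mouse were taken, and the RNA of 5 WT and 5 TG mice was amplified and labelled with Cy3 or Cy5. A WT and a TG mouse shared each of the 10 arrays, and each mouse was used with either dye, on 2 arrays in all. An array is called by both mice, so that WT1/TG4 carried the mice labelled WT1 and TG4. On arrays 1 to 5 the TG mouse carried Cy5 and on arrays 6 to 10 Cy3, as labelled. Ratios are log2 ratios of TG over WT after loess normalization, and a level is the log2 signal of a mouse averaged over its 2 channels.

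BCL2 proteins decide whether the outer membrane of mitochondria stays closed. BAX and BAK, the effectors, form pores in it, through which cytochrome c escapes and starts the caspases. BOK, the third effector, resembles both in sequence, sits largely in the endoplasmic reticulum, binds IP3 receptors and is kept low by degradation. BCL2, BCL-XL (Bcl2l1), BCL-W (Bcl2l2) and MCL1, the guardians, hold the pore formers back, and the BH3-only proteins BIM (Bcl2l11), BAD and BID release or trigger them. In the brain the family is known for the removal of surplus neurons during development and for the death of neurons after injury.

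The direction of every Agilent value depends on the labels of the arrays, and these are in doubt. Tmem254a was measured on one-color Applied Biosystems (ABI) arrays and on the Agilent arrays. Its normalized log2 signal on ABI lay between 12.75 and 13.23 in 5 WT mice and between 14.61 and 15.24 in 5 TG mice, a difference of 1.81 ± 0.17 (SE; FDR 0.0251 in limma's test, and 0.102 after median centring). On Agilent its log2 ratio as labelled was between -1.16 and -0.63 on the 10 arrays, with a mean of -0.99. After removal of the mean of each dye orientation, pairs of arrays of opposite orientation that share a mouse correlated across 33790 probes with a mean r of 0.11 as labelled (10 pairs, from -0.54 to 0.81), and the 15 pairs that share no mouse with a mean r of -0.04. If arrays 1 to 5 are exchanged with arrays 6 to 10, these means are 0.30 (10 pairs, from -0.29 to 0.81) and -0.17 (15 pairs). Probes are not independent, and no test was made of these correlations. The 4 probes of Dclk1, the gene of the transgene, had log2 ratios between -0.08 and -0.06 and FDR values from 0.492 to 0.729 in limma's test, so they settled no direction. All directions are given as labelled, and each turns under the exchange. The mouse to which a channel belongs changes as well, so that the channels labelled TG4 would be those of the WT mouse WT5.

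Arrays held 41174 probes after control spots were left out, and between 80.2% and 88.5% of the spots of an array were well above background in both channels. Of the lists of marker genes, all 12 probes for neurons, 9 of 11 for dentate granule cells and 6 of 7 for CA pyramidal cells were present, that is above the negative controls in both channels of all arrays. The log2 of the summed signals of 10 oligodendrocyte probes was between 14.88 and 15.26 in WT and between 14.56 and 14.94 in TG mice. In such a sum the brightest probes weigh most. The 10 probes held both signs, with 8 log2 ratios below and 2 above 0. For 8 astrocyte probes the ranges were 12.09 to 12.28 and 12.22 to 12.53. Of these, 2 probes were higher in TG at an FDR of 0.1, both for Aqp4, beside 3.66% of all probes, whereas Gfap had a log2 ratio of -0.15 and Gja1 one of -0.08. Choroid plexus probes, at 9.37 to 10.75 in WT and 9.19 to 10.77 in TG mice, had the widest range over mice of the 10 marker lists, and 0 of 5 passed (1 with an unadjusted p under 0.05). The part of these cell types in the values of the family was not tested, and in tissue RNA fewer cells of a type and less RNA per cell cannot be told apart.

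Bok lies on chromosome 1, and the 250 bases before its start are shown because Bok is the gene on which the values below turn. They come from RefSeq on the build GRCm38.p6, plus strand, chr1:93685325-93685574, written 5′ to 3′. Capitals mark the single GC box (GGGCGG, here on the opposite strand), which begins 8 bases before the start.

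Bok: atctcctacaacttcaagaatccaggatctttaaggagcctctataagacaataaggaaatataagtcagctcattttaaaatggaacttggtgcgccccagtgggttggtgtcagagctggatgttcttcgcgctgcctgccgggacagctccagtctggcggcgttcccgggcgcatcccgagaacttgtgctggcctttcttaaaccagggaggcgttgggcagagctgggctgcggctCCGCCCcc

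Either strand was searched, and overlapping matches were counted. A GC box was found in the same window of 8 of the 10 members and of 32.7% of 32851 RefSeq promoters, with 7 matches before Bcl2 and 0 before Bak1 and Bcl2l1. The letters of a TATA box (TATAAA) were in 0 of the 10 members and in 12.4% of all promoters. G and C made up 55.2% of the bases before Bok and between 48.4% and 74.8% of those before the 10 members, against a median of 52.4% over all promoters.

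Bok had the family's furthest ratio from 0, lower in TG mice on all 10 arrays as labelled. This direction is opposite to the one the study gives for Bok. With TG in Cy5 the log2 ratios were -0.62 (WT1/TG4), -0.26 (WT3/TG5), -0.49 (WT4/TG2), -0.50 (WT5/TG3) and -0.56 (WT6/TG1). With TG in Cy3 they were -0.28 (WT5/TG1), -0.62 (WT1/TG2), -0.12 (WT4/TG3), -0.43 (WT3/TG4) and -0.37 (WT6/TG5). Both orientations thus held negative ratios alone, and the array nearest to 0 was WT4/TG3. The mean was -0.42 ± 0.05 (SE, n = 10 arrays), which is 1.34-fold lower in TG as labelled and 1.34-fold higher if the arrays are exchanged.

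The levels of Bok, which was chosen by this difference, did not overlap between the genotypes, as was so for 2.08% of all probes. In the WT mice they were 9.83, 9.88, 9.74, 9.75 and 9.78 (WT1, WT3, WT4, WT5 and WT6), a mean of 9.79 ± 0.06 (SD, n = 5). In the TG mice they were 9.22, 9.20, 9.49, 9.42 and 9.53 (TG1 to TG5), a mean of 9.37 ± 0.15 (SD, n = 5). The lowest WT mouse was above the highest TG mouse, and TG1 and TG2 were the lowest of all. Under the exchange of arrays the groups were also apart, between 9.26 and 9.44 in WT and between 9.70 and 9.91 in TG mice. The Bok spot had a raw signal between 508 and 1388 and was well above background in all 20 channels. Without the mouse labelled TG4, which stood apart for other members, the log2 ratio of Bok was -0.40.

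**Figure D1:**
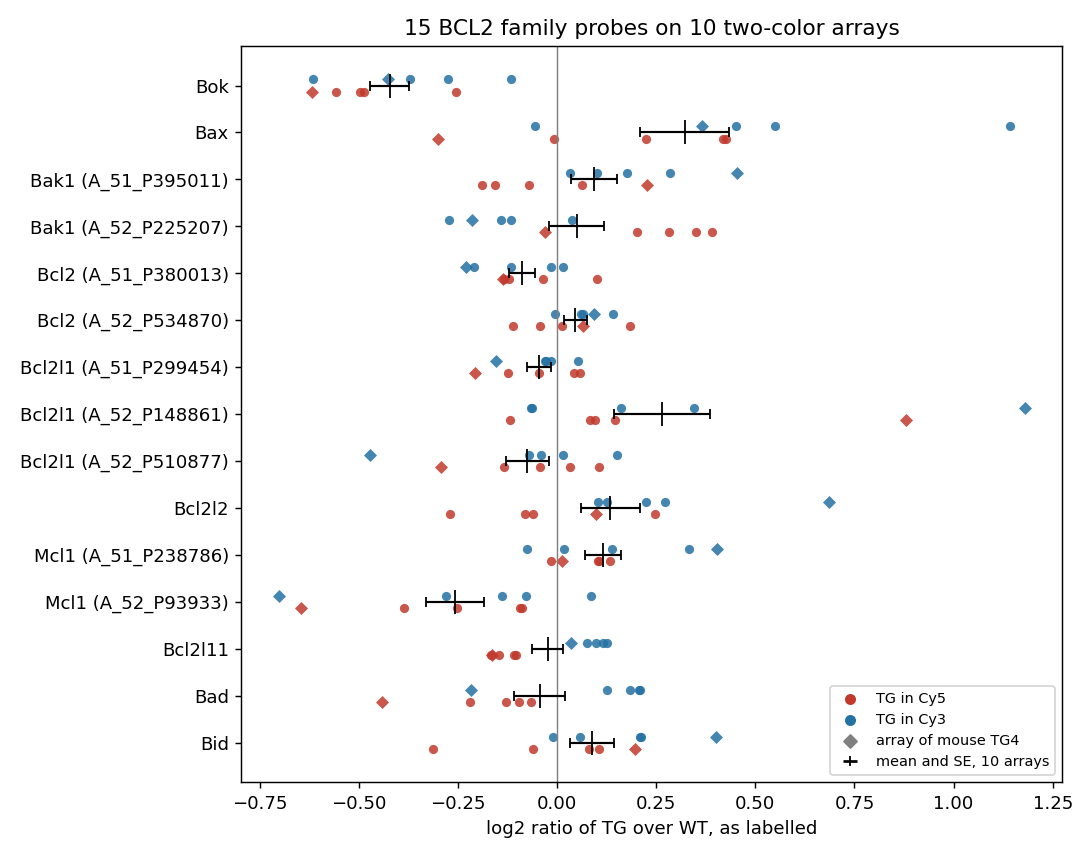
Log2 ratio of TG over WT as labelled (x axis) for the 15 probes of the 10 genes (y axis), 1 point per array, colored by dye orientation, with diamonds for both arrays of mouse TG4 and bars for the mean and SE over 10 arrays. Bok lies below 0 on all arrays, from -0.62 to -0.12, whereas 1 Bcl2l1 probe reaches 0.88 and 1.18 on the arrays of TG4 alone.

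Among the 14 probes of the other 9 genes, 1 (7.14%), for Mcl1, passed an FDR of 0.1 in limma's test, a share near the 7.41% of all 41174 probes. It was lower in TG as labelled, as were 3.76% of all probes, and 0 were higher, against 3.66%. The 14 probes had a median log2 ratio of 0.05 and a median absolute ratio of 0.09, beside 0.00 and 0.04 for all probes. Of these 14, 13 were well above background in all 20 channels, and their median raw signals lay between 57.9 and 529.

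The other 2 effectors did not pass the test. Bax, the main pore former of most cells, had log2 ratios from -0.30 to 1.14 (median 0.39) and a mean of 0.32 ± 0.11 (SE, n = 10 arrays; FDR 0.139 in limma's test). Its ratio was above 0 on 7 of 10 arrays, and the highest was on WT5/TG1. The Bax levels were 8.25, 8.0, 8.01, 7.73 and 8.20 in the WT mice and 8.60, 8.30, 8.43, 8.22 and 8.25 in TG1 to TG5. TG4 and TG5 lay just below WT1, and 3 of the 5 TG mice were above every WT mouse. Without the array WT1/TG4, on which Bax had its lowest ratio, the mean was 0.39 and passed (FDR 0.0777 in limma's test), whereas without both arrays of TG4 it was 0.39 with an FDR of 0.102. Without the mouse TG1 or WT5, which shared the array with the highest ratio, the mean was 0.21 in either case (FDR 0.323 and 0.336). With a replicate block for the WT or the TG mouse, Bax also passed, at an FDR of 0.0656 or 0.0989. The consensus correlation between arrays that share a mouse was negative in these fits (-0.25 for WT and -0.14 for TG mice). Calls over all probes rose from 3053 to 5969 and 4526. With 1 level per mouse the FDR of Bax was 0.408 in limma's test. Bak1, the partner of Bax at the outer membrane, was measured by 2 probes with mean log2 ratios of 0.09 ± 0.06 and 0.05 ± 0.07 (SE, n = 10; FDR 0.452 and 0.806 in limma's test). Without TG4 these means were 0.03 and 0.09.

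Of the 8 probes for the 4 guardians, 1 passed. This was the Mcl1 probe A_52_P93933, for a short-lived guardian that neurons need. Its log2 ratios were -0.65, -0.39, -0.25, -0.09 and -0.09 with TG in Cy5 and -0.28, 0.09, -0.08, -0.70 and -0.14 with TG in Cy3, in the same order of arrays as for Bok. The 2 arrays of TG4 held the lowest values, and WT1/TG2 was the single array above 0. The mean was -0.26 ± 0.07 (SE, n = 10 arrays; FDR 0.0791 in limma's test). The levels were 7.71, 7.84, 7.99, 8.08 and 7.83 in the WT mice and 7.83, 7.81, 7.89, 7.09 and 7.54 in TG1 to TG5. TG1, TG2 and TG3 lay within the WT range, and TG4 was the lowest mouse. Without the mouse TG4 the ratio was -0.15 with an FDR of 0.131, and the probe passed in 6 of the 20 fits without 1 array or 1 mouse, those without WT5/TG3, WT6/TG1, WT1/TG2, WT6/TG5, mouse WT1 or mouse WT6. The other Mcl1 probe, A_51_P238786, had the opposite sign, with ratios from -0.08 to 0.40 and a mean of 0.12 ± 0.05 (FDR 0.190). The 2 probes therefore gave no common direction for Mcl1.

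Bcl2l1, whose product BCL-XL is the guardian of adult neurons, had 3 probes whose ratios shared no sign. The mean for A_52_P148861 was 0.26 ± 0.12 on the log2 scale (SE over 10 arrays; FDR 0.269 in limma's test). It was 0.88 on WT1/TG4 and 1.18 on WT3/TG4, and between -0.12 and 0.34 on the other 8 arrays. Its levels were 8.27, 8.07, 7.98, 8.15 and 8.21 in the WT mice and 8.27, 8.21, 8.15, 9.19 and 8.17 in TG1 to TG5, and TG4 stood apart. Without TG4 the ratio was 0.07. The other probes, A_51_P299454 and A_52_P510877, had means of -0.05 ± 0.03 and -0.08 ± 0.05 (FDR 0.479 and 0.536), and the second was just above 0 without TG4.

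Bcl2, the founding guardian of the family, was measured by 1 probe for each transcript variant. The probe A_51_P380013, for variant 2, had a mean of -0.09 ± 0.03 on the log2 scale (SE over 10 arrays; FDR 0.171 in limma's test) and was below 0 on 8 arrays. It passed with a replicate block for the WT mouse (FDR 0.0819) and without the array WT6/TG1 (FDR 0.0746). The block had a negative consensus correlation (-0.25), and with 1 level per mouse the FDR of this probe was 0.976 in limma's test. The probe A_52_P534870, for variant 1, had 0.05 ± 0.03 (FDR 0.455) and was below 0 on 3 arrays. Bcl2l2, for BCL-W, had 0.13 ± 0.07 (FDR 0.369), with its highest ratio, 0.69, on WT3/TG4 and 0.07 without TG4. None of these 3 probes passed in the fit of all arrays without a replicate block.

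The 3 BH3-only genes had 1 probe each, of which 0 passed in limma's test and 0 had an unadjusted p under 0.05. Bid, which links death receptors to mitochondria, had log2 ratios from -0.31 to 0.40 and a mean of 0.09 ± 0.06 (SE, n = 10 arrays; FDR 0.461 in limma's test). The mean of Bid was 0.03 without TG4 and 0.15 without TG2. Bad, which growth factor signalling holds inactive by phosphorylation, had a mean of -0.04 ± 0.06 (FDR 0.809), and 0.03 without TG4. Bcl2l11, for BIM, had -0.02 ± 0.04 (FDR 0.836). The Bcl2l11 spot was well above background in only 2 of 20 channels and was the single family probe that failed the present call, so its level was not measured and the ratio is of little weight. A further probe described as Bcl2l2 and one described as Bcl2l11, both without a symbol in the files and looked at after their values were seen, had log2 ratios of 0.03 and -0.03 (FDR 0.605 and 0.624) and failed the present call too.

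The ratio of a probe can differ between the dye orientations. Of the 15 family probes, the orientation term passed an FDR of 0.1 for 3, against 22.6% of all probes. Without Bcl2l11, which failed the present call, it passed for 2 of 14. The Bak1 probe A_52_P225207 had mean log2 ratios of 0.24 ± 0.17 (SD, n = 5 arrays) with TG in Cy5 and -0.14 ± 0.12 with TG in Cy3 (FDR 0.0167 in limma's test). Bad had -0.19 ± 0.15 and 0.10 ± 0.18 (FDR 0.0733). The term passed in all 27 other settings and leave-outs for this Bak1 probe, but in 11 of 27 for Bad. For Bok the means were -0.48 ± 0.14 and -0.36 ± 0.18, with an FDR of the orientation term of 0.433, and Mcl1 A_52_P93933 had -0.29 ± 0.23 and -0.22 ± 0.30 (FDR 0.802). A p that misses the limit does not show that the orientations were equal. Slides fell into 2 barcode series that coincide with the orientations, so slide series and dye cannot be told apart. The arrays WT1/TG2 and WT4/TG3 were scanned in a later session, in which the mean for Bok was -0.37 (2 arrays) beside -0.44 ± 0.13 (SD) on the other 8, and that for Mcl1 A_52_P93933 was 0.00 beside -0.32 ± 0.24.

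**Figure D2:**
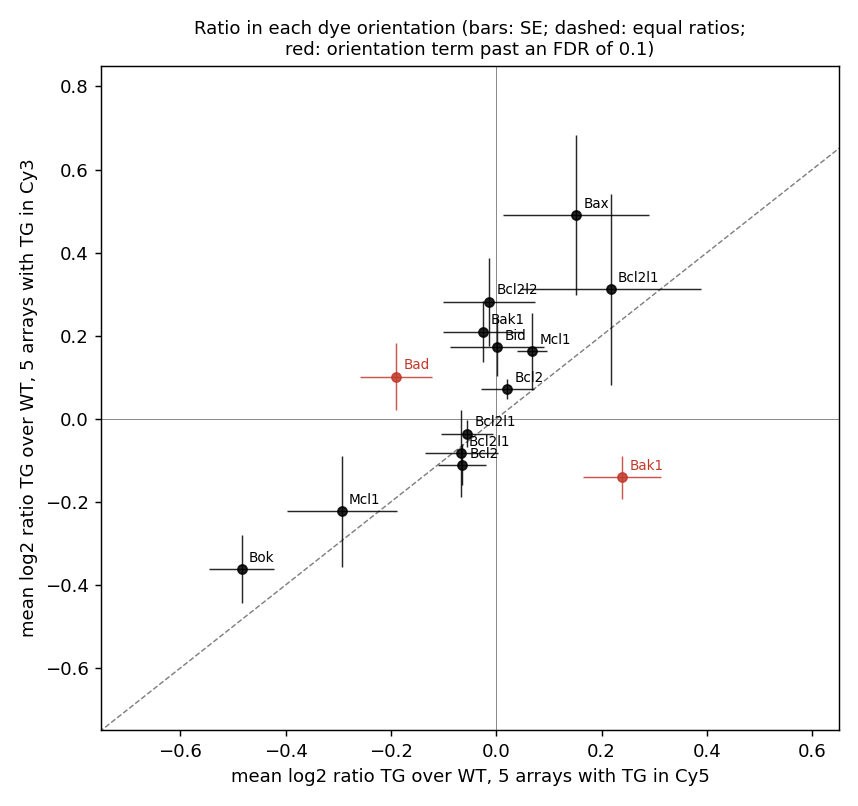
Mean log2 ratio of TG over WT as labelled on the 5 arrays with TG in Cy5 (x axis) and on the 5 with TG in Cy3 (y axis), 1 point per present family probe with SE bars; on the dashed line both are equal, and red marks an orientation term past an FDR of 0.1. Bok lies at -0.48 and -0.36, near the line, and the red probes of Bak1 and Bad have opposite signs in both orientations.

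With 1 level per mouse, 5 WT against 5 TG mice, 0 of the 14 probes of the other genes passed an FDR of 0.1 in limma's test, against 0.0583% of all probes (24), and 1 had an unadjusted p under 0.05. The lowest FDR among the 14 probes of the other genes was 0.408, for Bax, with the difference of 0.32 ± 0.11 (SE). The levels of the WT and TG mice overlapped for all 14 probes, and they did not overlap for 2.08% of all probes. Nothing is read from the separate levels of Bok, which was chosen by this difference. Each mouse was on 2 arrays, so the 10 ratios behind the FDR values over arrays are not independent.

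**Figure D3:**
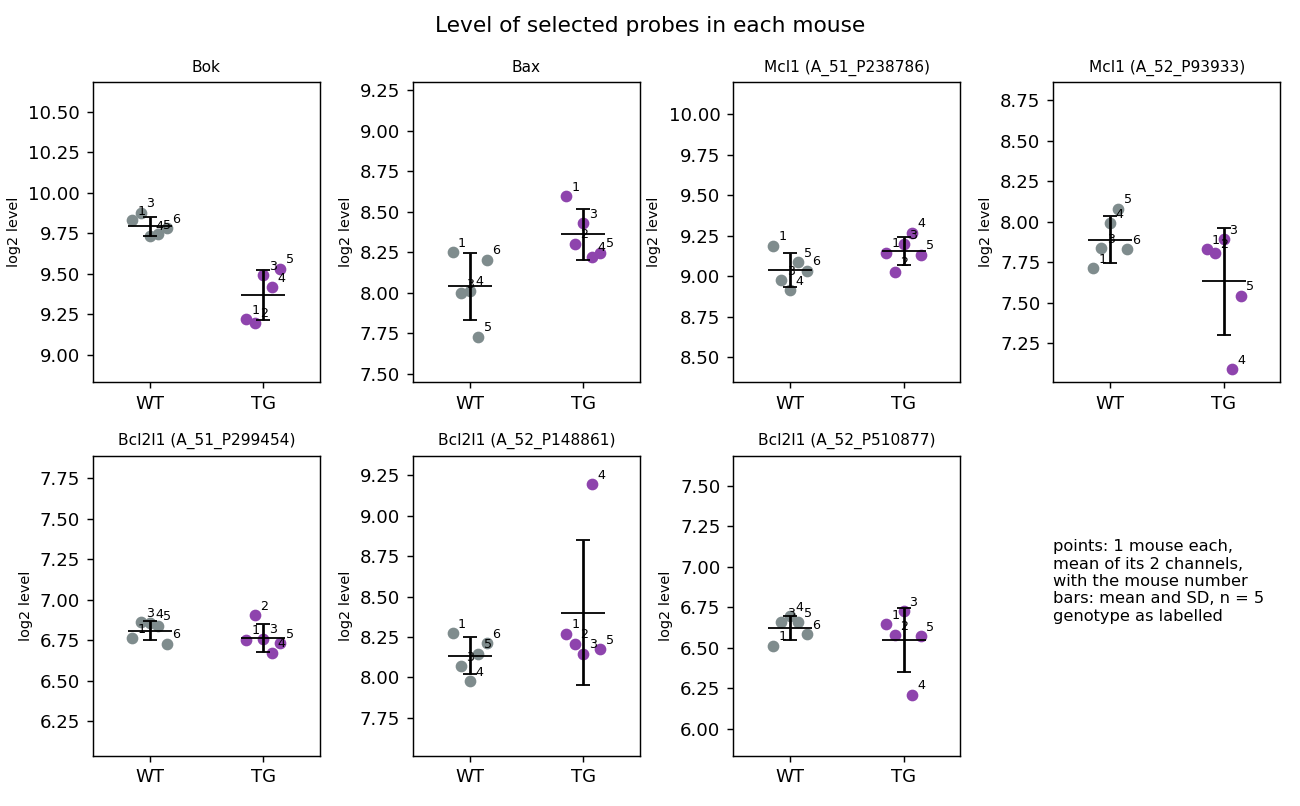
Log2 level (y axis) of 7 family probes in the WT and TG mice as labelled, 1 point per mouse with its number and bars for the mean and SD of 5 mice. Bok levels are apart, 9.74 to 9.88 in WT and 9.20 to 9.53 in TG, and mouse TG4 stands alone at 9.19 for Bcl2l1 A_52_P148861 and at 7.09 for Mcl1 A_52_P93933.

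Both arrays of the mouse labelled TG4 set the probes of one gene against each other, a pattern that was looked at after the values were seen. Under the exchange of arrays this mouse would be WT5, a WT mouse, so its genotype depends on the labels. The pattern belongs to a single mouse, and its relation to the genotype was not tested. For the 3 genes with several probes for 1 transcript (Bcl2l1, Mcl1 and Bak1), the ratio of the probe nearest the 5′ end was subtracted from that nearest the 3′ end, by the coordinates in the files. For Bcl2l1 (probes 49099 bases apart on the genome) the difference was 1.09 on WT1/TG4 and 1.34 on WT3/TG4, and between -0.12 and 0.38 on the other 8 arrays. For Mcl1 (1312 bases) it was 0.66 and 1.11, against -0.16 to 0.49. For Bak1 (1153 bases) the values of 0.26 and 0.67 were above 0 too, but WT1/TG4 was within the range of the other arrays, which was -0.58 to 0.40. That range differed by dye orientation, from -0.58 to -0.14 with TG in Cy5 and from -0.01 to 0.40 with TG in Cy3. Within its own orientation, TG in Cy5, WT1/TG4 was thus above the other arrays. The 5′ probe of Bak1, A_52_P225207, is the one whose orientation term passed. Over 3677 genes with present probes for 1 transcript between 200 and 100000 bases apart, the median difference was 0.17 on WT1/TG4 and 0.14 on WT3/TG4 and between -0.07 and 0.05 on the others. The shift of TG4 in the family thus had the sign of the shift over all genes on these 2 arrays, and Bok, with 1 probe, could not be checked in this way. Across the 10 arrays the outermost probes of a gene had an r of -0.84 for Bak1, -0.73 for Bcl2l1 and -0.42 for Mcl1. For Bcl2l1 this r includes the arrays of TG4, with 0.88 and 1.18 for the 3′ probe beside -0.21 and -0.16 for the 5′ probe. The Bak1 probes differed by orientation in opposite ways. With TG in Cy5 and then in Cy3, the means were -0.02 and 0.21 (3′ probe) and 0.24 and -0.14 (5′ probe). No r was taken without TG4 or within an orientation. The part of RNA quality in these values was not tested.

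**Figure D4:**
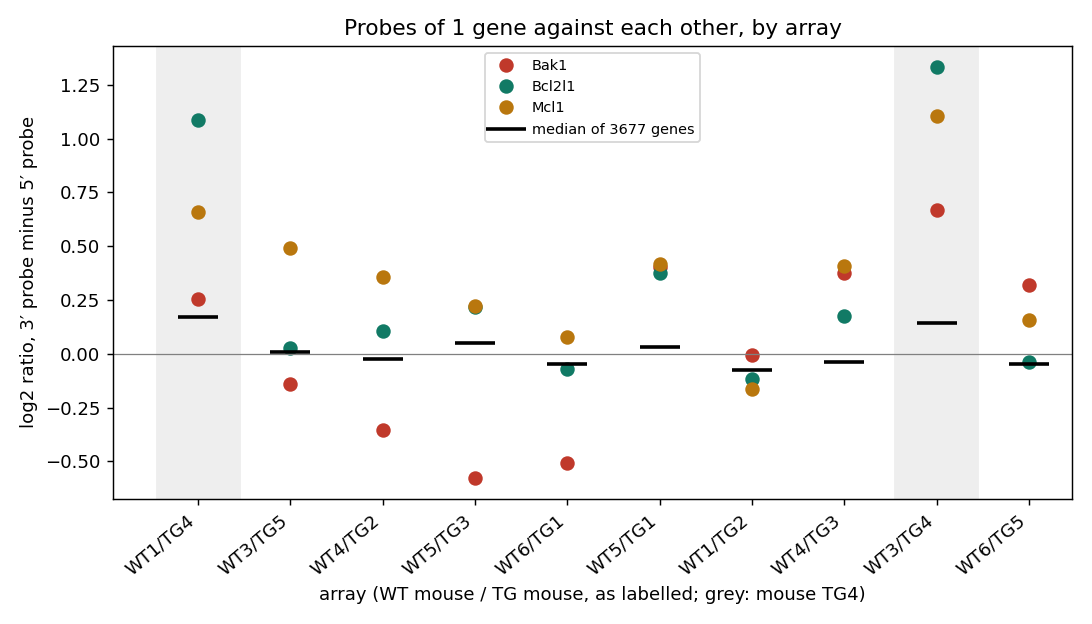
Log2 ratio of the 3′ probe minus that of the 5′ probe (y axis) on each array (x axis, WT and TG mouse as labelled) for the 3 family genes with several probes for 1 transcript, with black bars for the median of 3677 genes and grey bands for the arrays of mouse TG4. On both TG4 arrays all 3 genes lie above 0, Bcl2l1 at 1.09 and 1.34, and the median of all genes is 0.17 and 0.14.

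Around the family, 78 of 81 listed genes were found with 116 probes, and 8 probes of 7 genes passed an FDR of 0.1 in limma's test (6.90%, beside 7.41% of all probes), 4 higher and 4 lower in TG as labelled. With 1 level per mouse, 1 of the 116 passed, a probe of Uchl1, beside 0.0583% of all probes. By list, of 11 to 29 probes each, between 0% and 16.7% passed over arrays, to be read beside the same 7.41%. The lists hold genes that act before, with or after the family. Among 14 further family genes (18 probes), 1 probe passed, for Bnip3l, a receptor that hands mitochondria to autophagy. Its log2 ratio averaged -0.55 ± 0.15 (SE over 10 arrays; FDR 0.0687), with -1.41 and -1.52 on the arrays of TG4 and -0.02 to -0.58 on the others, and the mean without TG4 was -0.32. The second Bnip3l probe had -0.08 ± 0.04 (FDR 0.296).

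Downstream of the pores, no call was made in the main fit of the 10 arrays. Of 20 probes for 13 caspase and apoptosome genes, 0 passed in limma's test, and 1 had an unadjusted p under 0.05. The largest ratio was that of Cycs, cytochrome c itself, at 0.27 ± 0.08 (SE, n = 10 arrays), and its FDR lay just above the limit of 0.1. Cycs was above 0 on 8 of 10 arrays, and without TG4 it had 0.31 with an FDR of 0.0990. This Cycs probe passed in 5 of 13 other settings, among them both replicate blocks, and in 5 of the 20 fits without 1 array or mouse. With 1 level per mouse its FDR was 0.441 in limma's test. Of 11 probes for inhibitors of apoptosis and their antagonists, 0 passed and 0 had an unadjusted p under 0.05. The largest ratio there was that of Birc2, a ubiquitin ligase, at 0.11 ± 0.05 (FDR 0.311).

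At the outer membrane, 1 of 11 probes passed, for Mtch2, which receives cleaved BID at mitochondria. The probe A_52_P601958 was below 0 on all 10 arrays, with ratios from -0.42 to -0.04 and a mean of -0.20 ± 0.04 (SE, n = 10 arrays; FDR 0.0319 in limma's test). The other Mtch2 probe had the opposite sign, 0.08 ± 0.05 (FDR 0.409), so the gene as a whole had no common direction. In the list around BOK itself, with IP3 receptors and the genes of its degradation, 2 of 12 probes passed, and both were for Uchl1, a ubiquitin hydrolase abundant in neurons. Their ratios were 0.30 ± 0.08 (A_51_P475049; FDR 0.0609) and 0.31 ± 0.06 (A_52_P24308; FDR 0.0291), above 0 on 8 and 9 arrays. The first had a mean of 0.54 with TG in Cy5 and 0.06 with TG in Cy3, and without TG4 it no longer passed (0.31, FDR 0.113). With 1 level per mouse the first passed (FDR 0.0874) and the second did not (FDR 0.149).

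Upstream of the family, 2 of 29 probes passed, for the stress factor Atf4 and for Ddit3, the gene of CHOP, which Atf4 is known to induce. They had opposite signs. Atf4 averaged -0.59 ± 0.15 on the log2 scale (SE over 10 arrays; FDR 0.0601 in limma's test), with -1.45 and -1.74 on the arrays of TG4 and -0.16 to -0.45 on the others, and without TG4 it was -0.34 (FDR 0.00949). Ddit3 had 0.16 ± 0.04 (FDR 0.0498), above 0 on 9 arrays. Of the proteins that bind family members, 2 of 15 probes passed. Bag1, a co-chaperone that binds BCL2, was above 0 on all 10 arrays, with ratios from 0.02 to 0.33 and a mean of 0.19 ± 0.04 (FDR 0.0227). Usp9x, which removes ubiquitin from MCL1, had -0.35 ± 0.09 (A_51_P261528; FDR 0.0534), with -0.85 on each array of TG4, and -0.23 without TG4. Its second probe had -0.25 ± 0.08 (FDR 0.114).

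**Figure D5:**
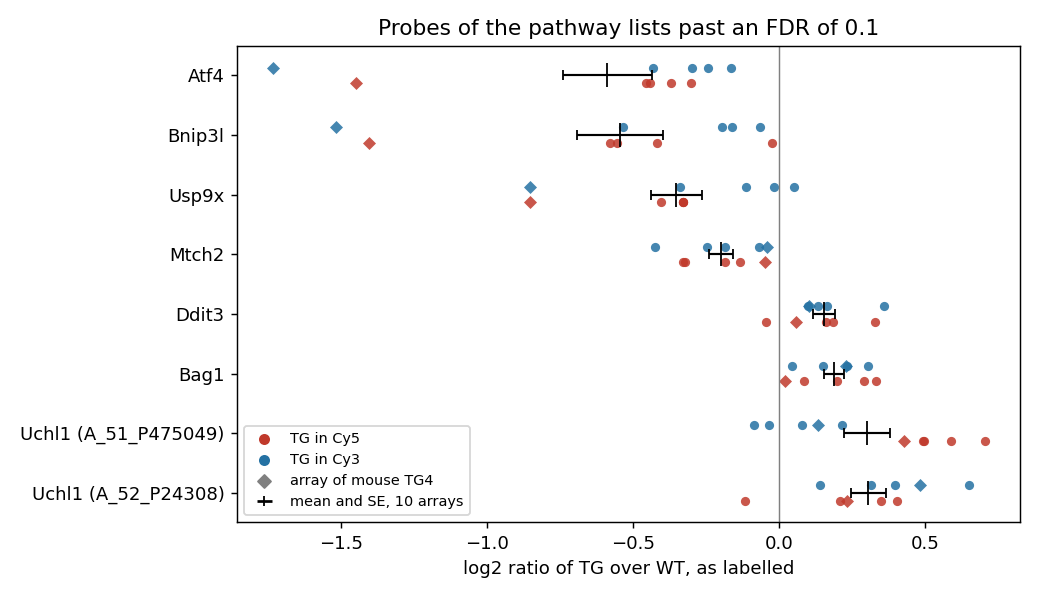
Log2 ratio of TG over WT as labelled (x axis) for the 8 probes of the pathway lists past an FDR of 0.1 (y axis), 1 point per array, colored by dye orientation, with diamonds for mouse TG4 and bars for the mean and SE of 10 arrays. Atf4, Bnip3l and Usp9x reach -1.74, -1.52 and -0.85 on the arrays of TG4, and Bag1 and Mtch2 keep one sign on all arrays.

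The probes whose ratios over the 10 arrays were most like those of Bok, among 23294 named probes of other genes, were those of Mrps34 (Pearson r of 0.94), Slc35b1 (0.91), Slc39a4 (0.91), Kcne2 (0.91) and Pot1a (0.90). They share arrays and mice with Bok, and the r is a description across 10 arrays. Their mean log2 ratios were 0.14, 0.17, 0.02, -0.02 and 0.00, with FDR values from 0.126 to 0.967 in limma's test, and none passed. Within the family, r with Bok was between -0.47 (Bak1 A_52_P225207) and 0.60 (Mcl1 A_51_P238786), and 0.34 for Bax. No family gene could be named on the ABI arrays through its identifiers, and arrays of the other platforms (Affymetrix, Illumina and LGTC) were not analysed here, so the family was described on Agilent alone.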

How the data were processed

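RNA of 5 WT and 5 TG hippocampi was measured on 10 Agilent two-color arrays. The authors deposited the mean and median pixel intensities of each spot, as read by Agilent Feature Extraction 8.5.1.1, without normalization, and a log10 ratio of Cy5 over Cy3 that the scanner software had corrected and normalized. The ABI intensities were deposited by the authors without normalization. The build of the probe coordinates is not given in the sources used here, and no probe sequences were used here. The 80 per-sample columns of the Illumina table, named by chip and position, were not mapped to mice and not used.

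Mean intensities were normalized in R 4.3.3 with limma 3.58.1 by loess within arrays, without background correction or filter, as in the study's methods, and spots of a probe were averaged. RNA had been amplified before labelling, per the labels. Log2 ratios were fitted with an intercept alone, or with the dye orientation beside it, and channel levels (Aquantile after loess) with the genotype, 1 value per mouse. An FDR (Benjamini and Hochberg) was computed over the 41174 probes, with 0.1 as the limit. SE are moderated. Present probes had both signals on every array above the percentile 95 of the 314 negative controls. The number of arrays limits the precision. ABI signals were quantile-normalized. Symbols came from RefSeq accessions for 22072 probes and from descriptions for 1223.

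The named genes are all member probes, pathway genes past the limit (per list without one, the gene with the largest ratio), the 5 probes most like Bok, Dclk1 and Tmem254a. The members and lists were chosen with earlier results of these data known. Alternatives covered background correction, pixel summary, normalization, the scanner's ratio, present probes, replicate blocks for mice (duplicateCorrelation, statmod 1.5.0), dye, scan session, a stricter limit and leaving out each array or mouse. The outlier flags, the exchange of arrays and the probe positions were added after seeing the data. Scripts were tested on simulated data.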

Additional observations from a re-analysis of the deposited data

Results flagged for a closer look

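In each of the 15 family probes, the 10 ratios, the 5 WT levels and the 5 TG levels were checked for a sample far from the others by Dixon's ratio, and 3 of 45 sets held one. All 3 were levels of the mouse labelled TG4, which would be WT5 under the exchange of arrays. Its level of Bcl2l1 A_52_P148861 was 9.19, above the other TG mice (8.15 to 8.27). Its level of Bcl2l11 was 5.77, below the others (5.83 to 5.84), for a probe that was not well above background in most channels. Its level of Bad was 6.10, below the others (6.44 to 6.47). Chance flags about 1 in 20 such sets.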

How the results depend on the processing

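Counting only fits whose estimate could differ (5 of the 13 settings, and each array or mouse left out), the 15 family probes kept the sign of their ratio in 374 of 376. The exceptions, both without the mouse TG4, were Bcl2l1 A_52_P510877, with -0.13 to 0.0018 over the fits without 1 array or mouse, and Bad, with -0.072 to 0.027. The ratio of Bok lay between -0.46 and -0.33 over 13 settings and between -0.46 and -0.37 over the 20 fits without 1 array or mouse.

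The number of all probes called, 3053, was 1335 with median centring, 1203 at an FDR of 0.05, 24 with 1 value per mouse, and between 282 and 3404 without 1 array or mouse. Family probes called, 2 of 15 with Bok, which was chosen by this contrast, were 1 with median centring, 1 at an FDR of 0.05, 0 with 1 value per mouse (limma; 2 with an unadjusted p under 0.05), and between 1 and 3 without 1 array or mouse. Without Bok the count of 1 was 0 in these 3 settings and between 0 and 2 in the fits without an array or mouse. With a replicate block for the WT mouse (consensus correlation -0.25), 5969 of all probes, 4 of the family and 3 without Bok passed. With a replicate block for the TG mouse (correlation -0.14), 4526, 3 and 2 passed. The calls added were Bax (both blocks) and Bcl2 A_51_P380013 (WT mouse). Mouse numbers come from the labels, and both arrays of a mouse carry its RNA.

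Orientation calls, 3 with Bcl2l11, were 7 with median centring, 1 with the scanner's log ratio and between 2 and 4 without 1 array or mouse. With 1 level per mouse, 0 family probes passed. The count was 1 with median centring (593 of all probes) and 1 under the exchange of arrays (11 of all probes), in each case Bok, from which nothing is read since it was chosen by this difference. No family probe passed (0 in each fit) without 1 mouse. The Tmem254a difference on ABI was 1.84 after median centring (FDR 0.102) and between 1.70 and 1.88 without 1 mouse (FDR 0.0363 to 0.154). Of the called probes of the pathway lists, each lost its call with 1 level per mouse or with median centring, and all kept their sign. They passed in between 6 (Bnip3l) and 18 (Bag1) of the 20 fits without 1 array or mouse. The cause of these changes was not tested, apart from the smaller number of samples where an array or mouse is left out. Signal near background limits Bcl2l11 among the 15 family probes, and 108 of the 116 pathway probes were present.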
